A study of Mus musculus with 11 samples.

Results

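Deposited cluster 2 held 14713 nuclei that the authors' class prediction names neurons. They made up 13.3% of the 110304 nuclei of the series and 19.3% of its 76211 neurons. A nucleus was a member when the deposited metadata gave it the class name of neurons and the cluster number 2. The other 101 nuclei of the cluster carried another class name and were left out. The cluster was singled out with its small loss of Malat1 already known, so its rank among neuron clusters is given below as a description. Which genes the authors clustered on is not given in the sources used here, so marker levels are given as descriptions too.

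The nuclei came from frozen brain of mice whose genotype label is a homozygous knock-in of the human transferrin receptor. All mice, controls included, carried that allele, while the metadata name the strain C57BL/6J and no knock-in. Dosing was intravenous, once a week for 4 doses, and brains were collected 72 h later. The labels do not say whether a library is 1 mouse, so p-values, where not stated otherwise, measure the spread between libraries. OTV:Malat1 (60 mg/kg, n = 3) joins an antisense oligonucleotide (ASO) against Malat1 to a molecule that binds the receptor. The other conjugate, nonTV:Malat1 (60 mg/kg, n = 3), carries the ASO on a molecule that does not bind it. Malat1 ASO (2.5 mg/kg, n = 2) is the oligonucleotide alone. ATV:BACE1 (57 mg/kg, n = 3), which binds the receptor and has no ASO, was the control. Replicate 1 of each group was female and 2.33 months old, replicate 4 male and 2.57 months, and replicate 5 male and 2.33 months. Replicates 1, 4 and 5 were also batches 1, 3 and 4 of the metadata, so batch, sex and age cannot be told apart. There was no replicate 4 of Malat1 ASO in the libraries analysed here.

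Malat1 is an abundant long non-coding RNA that stays in the nucleus, at nuclear speckles, where it can be cut by RNase H once an ASO is bound to it. Projection neurons of the striatum are inhibitory cells that express Gad1 and Gad2, the enzymes that make GABA. They fall into a kind with the dopamine receptor Drd1, which often expresses the peptide genes Tac1 and Pdyn, and a kind with the receptor Drd2, the adenosine receptor Adora2a and the peptide gene Penk. Dopamine and glutamate inputs act in these cells through cyclic AMP and calcium, which raise the transcription of immediate-early genes such as Fos, Junb and Nr4a3.

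Libraries held 968 to 1948 of these nuclei and 5429550 to 10023233 of their UMIs, and 15.9% to 28.8% of a library's neurons were in the cluster. The median nucleus had 4472 UMIs and 2146 genes. OTV:Malat1 replicate 5 had the lowest library median, 2919.5 UMIs, and the other 10 libraries had 3953.5 to 5511. Of 14686 barcode sequences, 27 occurred in more than 1 library. Replicates of a group differed by more than counting noise, with chi-square per degree of freedom between 4.38 and 14.4.

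The markers named for these nuclei did not make them cortical excitatory cells. The vesicular glutamate transporters Slc17a7 and Slc17a6 stood at 38.5 and 10.7 counts per 1e+06 UMIs (CPM), while Gad1 and Gad2 stood at 104 and 135 CPM. Camk2a, a kinase of many forebrain neurons, reached 454 CPM. All 6 striatal projection markers were detected, with Drd1 at 55.0 CPM, Drd2 at 130 CPM, Adora2a at 67.1 CPM and Penk at 124 CPM. Rgs9, a regulator of dopamine receptor signalling, was at 566 CPM and Ppp1r1b, which encodes the dopamine-regulated phosphatase inhibitor DARPP-32, at 48.5 CPM. In the neurons of clusters 0, 1, 5 and 9, Rgs9 was at 22.5 to 43.6 CPM and Drd2 at 2.89 to 11.6 CPM. The transcription factor genes Bcl11b and Foxp2, which cortical deep layers share with the striatum, were at 377 and 430 CPM. On these markers the cluster was striatal projection-like. The labels give the brain region as posterior and the metadata give cortex, and this conflict was not resolved. The summed level of the 6 markers ran from 803 to 1111 CPM in ATV:BACE1, 772 to 1137 in nonTV:Malat1, 854 to 1187 in OTV:Malat1 and 879 to 1036 in Malat1 ASO, so the groups overlapped.

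**Figure D1:**
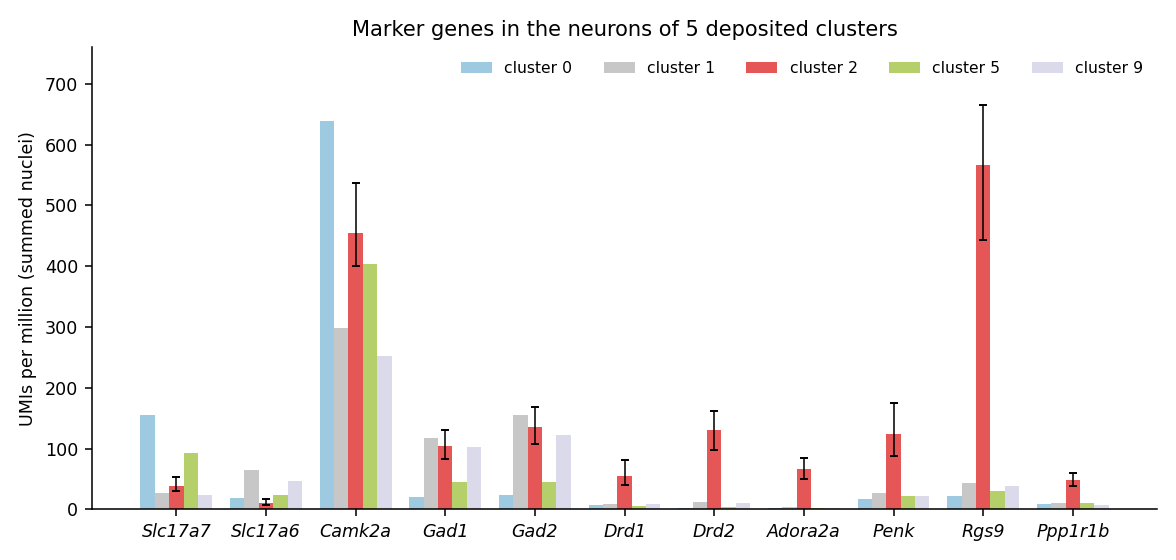
Level of 11 marker genes, in CPM of the summed nuclei, in the neurons of deposited clusters 0, 1, 2, 5 and 9. Lines on the cluster 2 bars span the lowest and highest of its 11 libraries. The dopamine receptor genes, Adora2a, Penk, Rgs9 and Ppp1r1b stand highest in cluster 2, while Slc17a7 stands highest in cluster 0.

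The nuclei were not of 1 kind. Of them 20.9% were called doublets (2 nuclei read as 1) in the metadata, against 10.4% of all nuclei of the series. Clustering them again without Malat1 gave 10 sub-clusters, numbered 0 to 9. Sub-cluster 1 (3377 nuclei) was led by Ebf1 and Drd1, and sub-cluster 4 (3354 nuclei) by Drd2, Adora2a and Penk. Sub-cluster 5 (822 nuclei) was led by genes that include Kremen1, Sema5b, Tac1 and Pdyn, sub-cluster 0 (425 nuclei) by Drd3 and Otof, and sub-cluster 8 (353 nuclei) by genes that include Adarb2, Casz1, Tshz1 and Foxp2. Adarb2, on the list of caudal ganglionic interneuron markers, was at 2608 CPM in sub-cluster 8, against 19.6 to 235.4 CPM in sub-clusters 0, 1, 4 and 5. In these 5 sub-clusters, 8331 nuclei in all, 0% to 1.13% of nuclei were called doublets. The other 6382 nuclei, 43.4% of the cluster, fell in sub-clusters 2, 3, 6, 7 and 9. Sub-cluster 2 (1935 nuclei) was led by genes that include the myelin gene Mog, sub-cluster 7 (1527 nuclei) by the astrocyte glutamate transporters Slc1a3 and Slc1a2, sub-cluster 6 (2475 nuclei) by genes that include Nxph1, and sub-cluster 3 (360 nuclei) by genes that include the thalamic Lef1 and Tcf7l2. In sub-clusters 2, 3, 7 and 9, 51.8% to 63.7% of nuclei were called doublets, and in sub-cluster 6 27.6% were. The 5 oligodendrocyte markers summed to 1471 CPM in sub-cluster 2 and to 239 to 276 CPM in sub-clusters 1, 4 and 5. Results are therefore given for the whole cluster and for the low-doublet sub-clusters 0, 1, 4, 5 and 8.

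The first question was how far each Malat1-directed agent lowered its target in these neurons. Malat1, at chr19:5795690-5802672 on the minus strand of GRCm38, took 8.41%, 8.53% and 9.46% of UMIs in ATV:BACE1 replicates 1, 4 and 5, a mean of 8.80% ± 0.577 (SD, n = 3). It took 7.19%, 6.04% and 7.06% in the same replicates of OTV:Malat1. That mean, 6.76% ± 0.630 (SD, n = 3), equalled 76.8% of the control level. The 3 OTV:Malat1 libraries were the lowest of the 11 and did not overlap any other group. In nonTV:Malat1 the shares were 8.42%, 9.06% and 9.49%, a mean of 8.99% ± 0.538 (SD, n = 3). With Malat1 ASO the shares were 8.87% and 9.35%, on average 9.11% ± 0.341 (SD, n = 2). Both of these groups overlapped the control range.

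The Malat1 difference in OTV:Malat1 against ATV:BACE1 was -0.39 on the log2 scale (SE 0.0862, 95% interval -0.57 to -0.21). It was negative within each of the replicates 1, 4 and 5, at -0.23, -0.50 and -0.42. In edgeR's quasi-likelihood test with the replicate number as block its unadjusted p was 2.45e-04, the 17th smallest of 16476 genes, and its Benjamini-Hochberg adjusted p was 0.237, so it did not pass 0.05. The exact two-sided permutation p of the library shares was 0.1, the smallest that 3 against 3 allows. Because the cluster was chosen for its small Malat1 loss, the size of this difference and its tests can lean towards no change. That holds for its sub-clusters as well. The difference against nonTV:Malat1 was -0.44 (adjusted p = 0.567) and against Malat1 ASO -0.44 (adjusted p = 0.559). For nonTV:Malat1 against ATV:BACE1 it was 0.05 (adjusted p = 1.0), with a 95% interval from -0.13 to 0.23. For Malat1 ASO it was 0.05 (adjusted p = 0.921), with a 95% interval from -0.15 to 0.26.

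The call on OTV:Malat1 turned on the scaling, on the filter on low counts and on 1 library. With the same -0.39, DESeq2 gave an adjusted p of 0.0383, and edgeR with total counts in place of TMM scaling (-0.38) gave 9.86e-04. With no filter on low counts the adjusted p at -0.38 was 7.51e-16. That fit took its spread from all 25061 genes with a count pooled (SE 0.0422 for Malat1), so this p does not measure the spread between libraries. Without ATV:BACE1 replicate 1 the adjusted p was 0.00165, and without the replicate block it was 1.0. Called doublets made up 21.6%, 22.3% and 32.1% of the nuclei in ATV:BACE1 replicates 1, 4 and 5, against 18.5%, 12.7% and 27.8% in OTV:Malat1. Without called doublets the mean share in OTV:Malat1 was 80.9% of that in ATV:BACE1. The 5 astrocyte markers summed to 406 to 420 CPM in ATV:BACE1 and 299 to 418 CPM in OTV:Malat1, and the 5 oligodendrocyte markers to 369 to 476 and 388 to 652 CPM. The 4 markers of oligodendrocyte precursors summed to 33.7 to 36.8 CPM in ATV:BACE1 and 39.1 to 43.1 CPM in OTV:Malat1, without overlap. None of these markers was at 0 in every library, and their part in the result was not tested. The summed markers of microglia, endothelium, mural cells, leptomeninges, and choroid plexus with ependyma overlapped between OTV:Malat1 and ATV:BACE1.

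**Figure D2:**
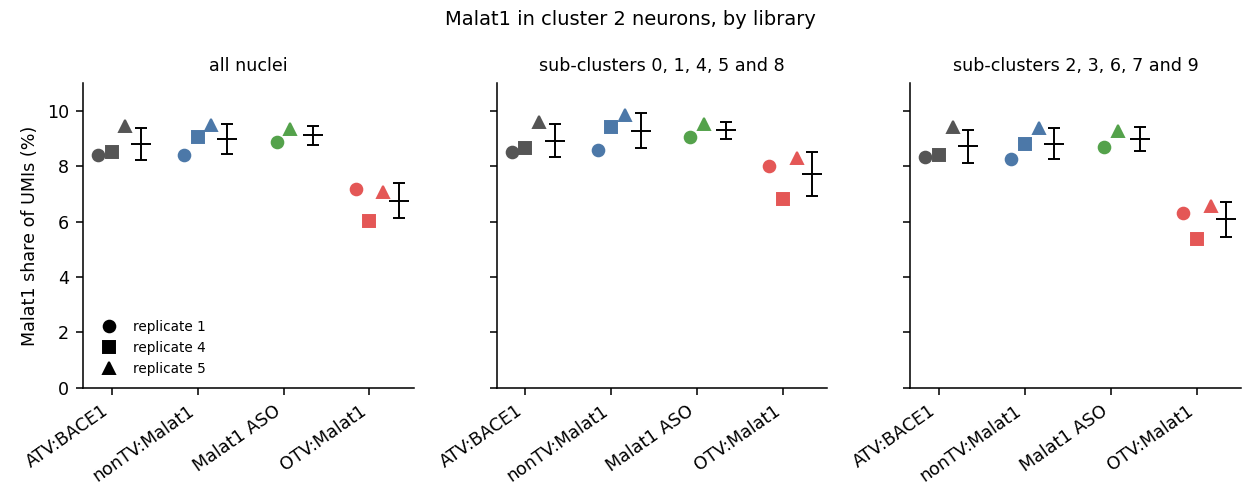
Malat1 share of UMIs in percent for each library, with the group mean and SD beside the points, in all nuclei of the cluster, in sub-clusters 0, 1, 4, 5 and 8, and in sub-clusters 2, 3, 6, 7 and 9. The OTV:Malat1 points lie below every other group in all 3 panels, and their mean of 7.71% in the middle panel is closer to the other groups than their 6.08% in the right panel.

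The low-doublet and the doublet-rich nuclei were then taken apart. In sub-clusters 0, 1, 4, 5 and 8 the Malat1 share was 8.50%, 8.67% and 9.61% in ATV:BACE1 replicates 1, 4 and 5, against 8.0%, 6.82% and 8.31% in OTV:Malat1. The OTV:Malat1 mean was 86.4% of the control mean, the groups did not overlap, and the exact permutation p was 0.1. The log2 differences within replicates were -0.09, -0.35 and -0.21, and the edgeR adjusted p was 1.0. In sub-clusters 2, 3, 6, 7 and 9 the share was 8.33%, 8.42% and 9.41% in ATV:BACE1 and 6.32%, 5.36% and 6.56% in OTV:Malat1. There the OTV:Malat1 mean was 69.7% of the control mean, with within-replicate differences of -0.40, -0.65 and -0.52 and an exact permutation p of 0.1.

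Per sub-cluster, Malat1 passed the test in 5 of 9 (sub-cluster 9 had too few nuclei). In the Drd2-led sub-cluster 4 its share was 8.74%, 8.77% and 10.2% in ATV:BACE1 replicates 1, 4 and 5, against 8.08%, 6.87% and 8.37% in OTV:Malat1. The groups did not overlap, and the log2 difference of -0.26 (SE 0.0693) had an edgeR adjusted p of 1.0. The Drd1-led sub-cluster 1 had 8.27%, 8.56% and 9.37% against 7.97%, 6.66% and 8.28%, where the groups overlapped and the difference was -0.19 (SE 0.0832). Sub-clusters 0 and 5 had differences of -0.19 and -0.15 that did not pass either. Leaving out 1 library, the difference ran from -0.34 to -0.17 in sub-cluster 4, from -0.29 to -0.0849 in sub-cluster 1, from -0.23 to -0.11 in sub-cluster 0 and from -0.23 to -0.0438 in sub-cluster 5, each time nearest to 0 without OTV:Malat1 replicate 4. Malat1 fell in the small sub-cluster 8, by 0.33 on the log2 scale (edgeR adjusted p = 2.74e-04). It fell by 0.57 in sub-cluster 2 (edgeR adjusted p = 8.98e-09), by 0.62 in sub-cluster 3 (1.31e-05), by 0.52 in sub-cluster 6 (0.00156) and by 0.53 in sub-cluster 7 (4.16e-05). Over all genes of these fits, 0.0168%, 0.0146%, 0.0315%, 0.0177% and 0.0759% of those tested were called in sub-clusters 2, 3, 6, 7 and 8. The share was 0.0541% in sub-cluster 1 and 0% in sub-clusters 0, 4 and 5. Without the replicate block 1 of the 9 sub-clusters was called, and with at least 50 nuclei per library 3 of 6 were. Without OTV:Malat1 replicate 4 the calls were 2, and sub-clusters 3 (adjusted p = 0.0509), 6 (0.0786) and 8 (0.204) did not pass. Sub-cluster 8 did not pass without ATV:BACE1 replicate 4 either (adjusted p = 0.145).

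A test of the difference itself was made with limma in the 7 sub-clusters with enough nuclei in all libraries. Each value was centred on its library mean over the 7, so the differences cancel out over them. The test pooled the spread over the 7, which come from the same libraries and are not independent. Its p-values therefore do not measure the spread between libraries alone. Against the mean of the 7, the change in OTV:Malat1 was smaller in sub-cluster 5 (+0.25, adjusted p = 1.37e-08), sub-cluster 1 (+0.19, adjusted p = 8.78e-07) and sub-cluster 4 (+0.14, adjusted p = 9.32e-05). It was larger in sub-cluster 3 (-0.21, adjusted p = 3.96e-07), sub-cluster 2 (-0.15, adjusted p = 4.44e-05), sub-cluster 7 (-0.12, adjusted p = 4.06e-04) and sub-cluster 6 (-0.10, adjusted p = 0.00216). Without called doublets 4 of the 6 sub-clusters that could be fitted passed, and sub-clusters 4 and 7 did not. The 3 sub-clusters with the smaller change were those with 0.0894% to 0.487% called doublets, and the 4 with the larger change had 27.6% to 63.7%. What part doublets have in this difference was not tested beyond leaving out the called ones. Between the Drd2-led and the Drd1-led sub-cluster, the log2 ratio of Malat1 shares was 0.08, 0.03 and 0.12 in ATV:BACE1 and 0.02, 0.05 and 0.02 in OTV:Malat1, which overlapped (exact permutation p = 0.2). With the replicate block, limma put the OTV:Malat1 change in sub-cluster 1 minus that in sub-cluster 4 at 0.07 (SE 0.0266). The unadjusted limma p was 0.0132 and the adjusted p over 10377 genes was 0.999.

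**Figure D3:**
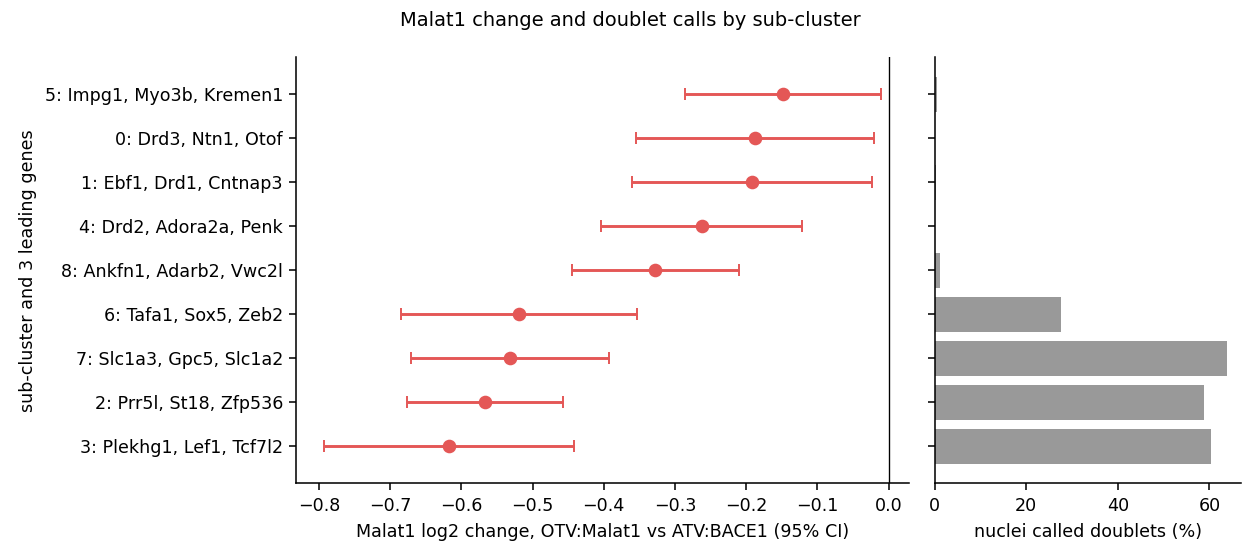
Left, log2 change of Malat1 in OTV:Malat1 against ATV:BACE1 with its 95% interval in 9 sub-clusters, each named by its number and 3 leading genes. Right, percent of nuclei called doublets, with the sub-clusters above 20% also holding the 4 changes beyond -0.5.

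The share of nuclei with little Malat1 was read after thinning each nucleus to 1000 UMIs, with the 65 shallower nuclei left out. A nucleus was low at or under 53.6 Malat1 UMIs per 1000, the mean of the 5th percentiles of the ATV:BACE1 libraries. The mean share of low nuclei in ATV:BACE1 was thus set by this choice. Low nuclei made up 5.84%, 6.41% and 2.77% in ATV:BACE1 replicates 1, 4 and 5, against 19.6%, 36.8% and 19.7% in OTV:Malat1. The groups did not overlap, and the means were 5.01% ± 1.96 (SD, n = 3) and 25.4% ± 9.90 (SD, n = 3), with an exact permutation p of 0.1. In nonTV:Malat1 4.88% to 8.05% of nuclei were low and in Malat1 ASO 4.53% and 6.10%. The median nucleus moved as well, from 83, 87 and 94 Malat1 UMIs per 1000 in ATV:BACE1 to 74, 61 and 74 in OTV:Malat1. In sub-clusters 0, 1, 4, 5 and 8 of OTV:Malat1 17.5% ± 8.71 (SD, n = 3) of nuclei were low by that threshold, and in the other sub-clusters 36.4% ± 13.0 (SD, n = 3). In ATV:BACE1 these were 4.39% ± 2.35 and 5.70% ± 1.81 (SD, n = 3). With the threshold set anew in sub-clusters 0, 1, 4, 5 and 8 the difference of the means there was 11.8 percentage points. Unthinned, the difference of the means was 21.0 percentage points, against 20.4 after thinning.

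Beside the other neuron clusters, OTV:Malat1 left a larger part of the control Malat1 level here. Its mean was 76.8% of the control mean in cluster 2, 62.3% in cluster 1, 59.1% in cluster 0, 55.3% in cluster 5 and 47.0% in cluster 9. Without called doublets these were 80.9%, 62.8%, 59.7%, 64.1% and 46.2%. The clusters started from different levels. With all nuclei, the mean ATV:BACE1 share of UMIs was 8.80% in cluster 2 and 5.36%, 8.14%, 8.27% and 6.61% in clusters 1, 0, 5 and 9. The OTV:Malat1 means were 6.76% in cluster 2 and 3.34%, 4.81%, 4.57% and 3.11% in the others. The difference between the log2 changes was 0.42 (SE 0.0584) between cluster 2 and cluster 0, 0.32 (SE 0.0690) between cluster 2 and cluster 1, and 0.74 (SE 0.0615) between cluster 2 and cluster 9. These are descriptions, since the cluster was chosen for its Malat1 change.

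Few other genes moved in OTV:Malat1. Against ATV:BACE1, edgeR's quasi-likelihood test called 2 of 16476 genes (0.0121%), both higher, and 821 (4.98%) had an unadjusted p under 0.05. Gm47423, a non-coding transcript that lies within the neurotrophin receptor gene Ntrk2 on the other strand, was at 101, 91.0 and 77.8 CPM in ATV:BACE1 replicates 1, 4 and 5 and at 137, 144 and 142 CPM in OTV:Malat1. The groups did not overlap, and the log2 change was 0.65 (SE 0.0873, adjusted p = 0.00743). Gm10851, which lies within Pfkfb3 on the other strand, was at 30.2, 20.7 and 14.0 CPM and at 66.6, 29.7 and 28.9 CPM. It rose by 0.93 (SE 0.135, adjusted p = 0.0114), in 3 of 3 replicates, although the groups overlapped. Pfkfb3, a regulator of glycolysis, had a log2 difference of 0.55 (SE 0.102, adjusted p = 0.0937). Whether the authors' counting used strand is not given in the sources used here, so reads of Gm47423 and Ntrk2, and of Gm10851 and Pfkfb3, may be mixed. Both calls were lost without the replicate block, where 163 genes had an unadjusted p under 0.05. Both were also lost without ATV:BACE1 replicate 5 (adjusted p = 0.0726 for each) and without OTV:Malat1 replicate 5 (0.0641 for each). In sub-clusters 0, 1, 4, 5 and 8 edgeR called 1 of 13369 genes, so at least 1 of the 2 calls was lost there. Gm47423 did not pass without ATV:BACE1 replicate 4 (adjusted p = 0.0691), nor Gm10851 without ATV:BACE1 replicate 1 (adjusted p = 0.266) or OTV:Malat1 replicate 1 (adjusted p = 0.132).

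For nonTV:Malat1 against ATV:BACE1 edgeR called 0 of 16476 genes (0%), with 686 (4.16%) at an unadjusted p under 0.05, and DESeq2 called 2. Gm47423 stood at 137, 145 and 106 CPM, all above the 3 ATV:BACE1 libraries, with a log2 difference of 0.52 (SE 0.0880, adjusted p = 0.197). The next by p were 1700016P03Rik at 0.62 (adjusted p = 0.214) and Crym at 0.64 (adjusted p = 0.830). Between OTV:Malat1 and nonTV:Malat1, OTV:Malat1 and Malat1 ASO, and nonTV:Malat1 and Malat1 ASO edgeR called 0% of genes each, with 646 (3.92%), 778 (4.72%) and 786 (4.77%) at an unadjusted p under 0.05. DESeq2 called 1, 0 and 0 genes in these comparisons, and the 1 was Malat1.

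Most calls were in Malat1 ASO against ATV:BACE1, where Malat1 itself did not differ beyond its error. Of 16476 genes 24 were called (0.146%), 23 higher (0.14%) and 1 lower (0.00607%), with 1411 (8.56%) at an unadjusted p under 0.05. The comparison has 2 libraries on 1 side, and all 3 comparisons with ATV:BACE1 share its libraries. Against that control all 24 genes differed in the same direction in OTV:Malat1 and nonTV:Malat1, where only Gm47423 and Gm10851 passed, both in OTV:Malat1. With any 1 library left out, this direction turned only for Mid1 in both and for Gm21887 in nonTV:Malat1. The part of the shared libraries in this was not tested, and the share of all tested genes that agreed in direction was not counted. Called doublets made up 16.6% and 20.6% of nuclei in Malat1 ASO, against 21.6% to 32.1% in ATV:BACE1. The 5 astrocyte markers summed to 306 and 364 CPM against 406 to 419.8 CPM, and the 4 markers of oligodendrocyte precursors to 39.3 and 48.1 CPM against 33.7 to 36.8 CPM. Called doublets, astrocyte markers and precursor markers thus did not overlap between the groups, and none of the markers was at 0 in every library. The 5 oligodendrocyte markers did overlap, at 429 to 609 CPM against 369 to 476 CPM. So did the summed markers of microglia, endothelium, mural cells, leptomeninges, and choroid plexus with ependyma. The part of these measures in the calls was not tested beyond leaving out the called doublets, without which 11 of the 24 genes passed. Among the 13 that did not, the log2 change was smaller for Homer1 (0.45 in place of 0.53), Pdyn, Pfkfb3 and Sik2 and larger for the others (for Mid1 1.97 in place of 1.59). The called genes are given by role.

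Of 33 activity-induced genes tested, Nr4a3 and Homer1 rose in Malat1 ASO. Nr4a3, an orphan nuclear receptor induced by activity, was at 26.8, 11.4 and 12.1 CPM in ATV:BACE1 replicates 1, 4 and 5 and at 56.3 and 47.1 CPM in Malat1 ASO replicates 1 and 5. The groups did not overlap, and the log2 change was 1.59 (SE 0.228, adjusted p = 0.00343). It stood at 47.0, 24.9 and 17.5 CPM in nonTV:Malat1 and at 34.4, 39.0 and 31.6 CPM in OTV:Malat1, with log2 differences of 0.83 (adjusted p = 0.830) and 1.09 (adjusted p = 0.136). The difference of 0.83 was 0.45 without nonTV:Malat1 replicate 1 and 1.18 without ATV:BACE1 replicate 1. Homer1, a scaffold of the glutamatergic synapse, was at 431, 402 and 295 CPM in ATV:BACE1 and at 630 and 434 CPM in Malat1 ASO. Each Malat1 ASO library stood above all 3 of ATV:BACE1, and Homer1 rose by 0.53 (SE 0.0813, adjusted p = 0.00565). Without called doublets its adjusted p was 0.0952, and without Malat1 ASO replicate 5 it was 0.0999.

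Pcsk1, which cleaves peptide precursors in secretory granules, was at 19.0, 13.7 and 17.6 CPM in ATV:BACE1 and at 42.1 and 28.9 CPM in Malat1 ASO, without overlap. It rose by 0.99 (SE 0.134, adjusted p = 0.00209), and its adjusted p was 0.0576 without ATV:BACE1 replicate 1 and 0.106 without Malat1 ASO replicate 1. Pdyn, the dynorphin precursor, was at 10.5, 9.48 and 8.06 CPM in ATV:BACE1 and at 20.7 and 13.7 CPM in Malat1 ASO. It rose by 0.92 (SE 0.170, adjusted p = 0.0288). Crym, which binds thyroid hormone in the cytoplasm, rose by 0.84 (adjusted p = 0.0324). Leaving out any 1 of 5 libraries ended the call of Pdyn (adjusted p up to 0.353) and any 1 of 5 that of Crym (adjusted p up to 0.302). For both these included ATV:BACE1 replicate 1 and Malat1 ASO replicates 1 and 5. The others were ATV:BACE1 replicate 4 and nonTV:Malat1 replicate 4 for Pdyn, and ATV:BACE1 replicate 5 and OTV:Malat1 replicate 4 for Crym.

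The non-coding 1700016P03Rik, whose locus holds the microRNA genes Mir212 and Mir132, was at 86.5, 33.4 and 49.3 CPM in ATV:BACE1 and at 175 and 118 CPM in Malat1 ASO. It rose by 1.19 (SE 0.123, adjusted p = 7.56e-05), and the groups did not overlap. Gm47423 was at 189 and 172 CPM in Malat1 ASO, above every ATV:BACE1 library, and rose by 1.04 (SE 0.0981, adjusted p = 3.26e-05). Gm10851 rose by 1.10 (adjusted p = 0.00209) and Pfkfb3 by 0.65 (adjusted p = 0.0183). Without ATV:BACE1 replicate 1 neither passed, and Pfkfb3 did not pass without Malat1 ASO replicate 1 or 5. The salt-inducible kinase gene Sik3 rose by 0.49 and its relative Sik2 by 0.70, the histone demethylase gene Kdm7a by 0.49 and Kdm6b by 0.79. Sik2, Kdm6b and Arl5b, a small GTPase gene that rose by 0.68, were named after their values were seen. The remaining increases were those of Peli1 (0.69) and Tiparp (0.83), which modify proteins with ubiquitin and ADP-ribose, Ranbp2 (0.49) and Lemd3 (0.52) of the nuclear envelope, the imprinted Nnat (0.58), Frmd6 (0.57) and Sgsm1 (0.66). For the 12 genes from Sik3 to Sgsm1 the adjusted p ran from 0.00196 (Peli1) to 0.0402 (Sik3 and Ranbp2). Peli1 passed with any 1 library left out, and the other 11 did not pass without ATV:BACE1 replicate 1 or without Malat1 ASO replicate 1. Without called doublets Peli1, Nnat, Frmd6 and Arl5b passed and the other 8 did not. The gene that fell was Selenot, a selenoprotein of the endoplasmic reticulum, at 47.0, 27.3 and 45.3 CPM in ATV:BACE1 and 25.4 and 31.6 CPM in Malat1 ASO, a change of -0.67 (adjusted p = 0.0311). The groups overlapped, and the call was lost without Malat1 ASO replicate 1 (adjusted p = 0.619), any 1 of the 3 ATV:BACE1 libraries (up to 0.353) or nonTV:Malat1 replicate 4 (0.0577).

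A pair of X-linked genes lost their calls when single libraries were left out. Mid1, a ubiquitin ligase, was at 8.63, 13.2 and 20.6 CPM in ATV:BACE1 and at 42.6 and 26.2 CPM in Malat1 ASO, with log2 ratios to the ATV:BACE1 library of the same number of 2.30 in replicate 1 and 0.35 in replicate 5. Its change of 1.59 (adjusted p = 0.0409) became 0.63 (adjusted p = 0.767) without Malat1 ASO replicate 1. Gm21887 was at 0.916, 0.482 and 1.77 CPM in ATV:BACE1 and at 14.5 and 4.82 CPM in Malat1 ASO. Its change of 3.21 (adjusted p = 0.00741) was still 2.81 without that library, with an adjusted p of 0.382. Without ATV:BACE1 replicate 1 the change was 1.46 (adjusted p = 0.312) for Mid1 and 2.64 (adjusted p = 0.270) for Gm21887. Mid1 also did not pass without nonTV:Malat1 replicate 1 or without replicate 4 of ATV:BACE1, nonTV:Malat1 or OTV:Malat1.

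The number of calls in Malat1 ASO also depended on single libraries. Without ATV:BACE1 replicate 1 edgeR called 5 genes, without Malat1 ASO replicate 1 it called 6, and without the replicate block it called 0. In sub-clusters 0, 1, 4, 5 and 8 it called 25, and 17 of the 24 were among them. With total counts in place of TMM scaling it called 18 genes, and 6 of the 24 calls ended. Comparing only the 2 groups also ended 6. Leaving out any other single library ended 0 to 11 of the 24 calls, the 11 without Malat1 ASO replicate 5. Of the 24 genes, 12 overlap a gene on the other strand in the GENCODE annotation of GRCm38, as do 50.7% of the 16233 tested genes found there.

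**Figure D4:**
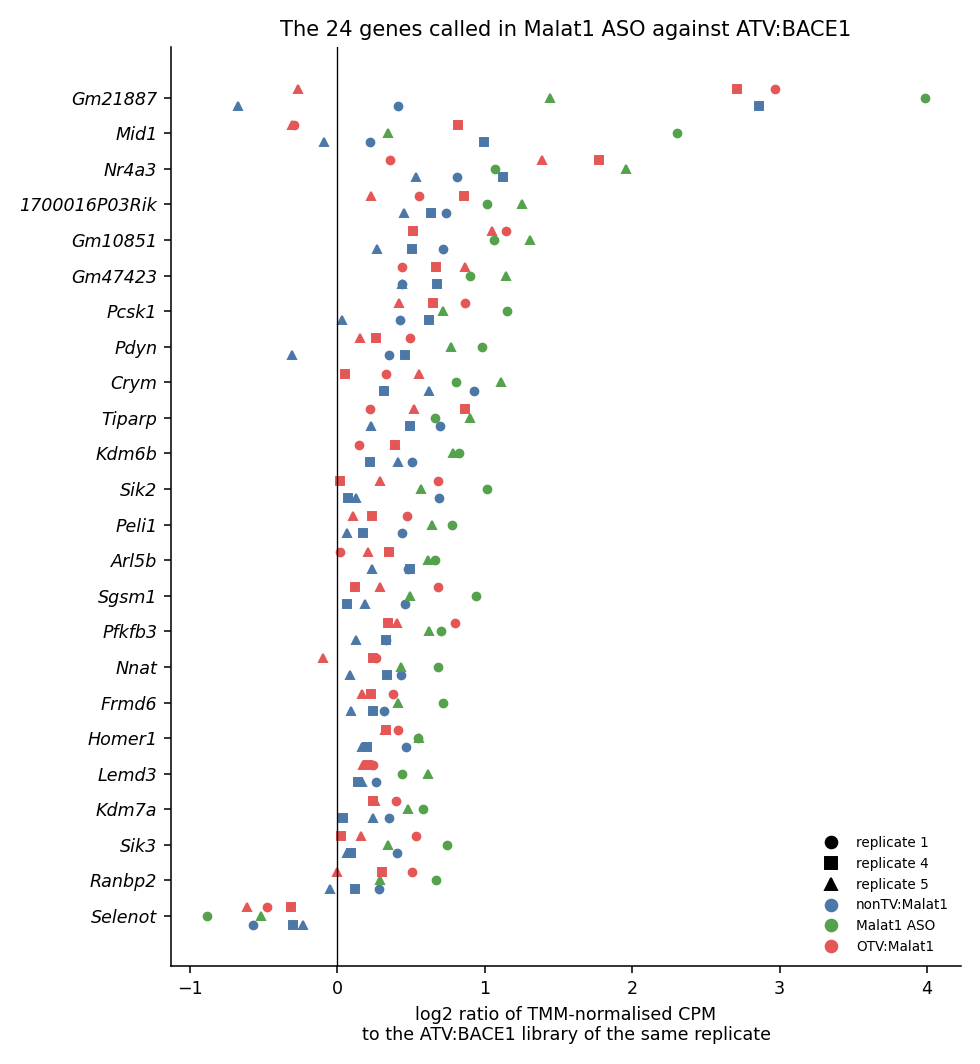
Log2 ratio of TMM-normalised CPM to the ATV:BACE1 library of the same replicate, for the 24 genes called in Malat1 ASO, with a point for each library of the other 3 groups. Malat1 ASO points lie to the right for 23 genes and to the left for Selenot, and the Mid1 points of replicates 1 and 5 lie far apart.

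The promoters of the genes that rose in Malat1 ASO were searched for the cyclic AMP response element, a motif chosen with the calls known. Of the 23 genes, 18 were matched by symbol, and 1700016P03Rik, Crym, Gm21887, Gm47423 and Kdm6b were not. In the 250 bases before the start site, the full cyclic AMP response element TGACGTCA was in 2 of 24 promoters of 18 genes that rose (8.33%). It was in 2.4% of promoters of the genes tested and in 1.55% of 32851 promoters in the RefSeq table of GRCm38.p6. The core TGACG, which on the other strand reads CGTCA and is part of the full element, was in 10 of the 24 (41.7%), against 24.8% of those of genes tested and 17.8% of all. The 4 stretches below are shown because Pcsk1 and Arl5b hold the full element, and because Nr4a3 and Homer1 are the 2 called members of the activity list. They lie at chr13:75089768-75089797 (Pcsk1), chr2:15055192-15055221 (Arl5b), chr4:48045070-48045109 (Nr4a3) and chr13:93303697-93303756 (Homer1), all on the plus strand, 5′ to 3′, with the motifs in capitals.
Pcsk1: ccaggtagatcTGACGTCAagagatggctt
Arl5b: cgcccgcTGACGTCAgcgcgccgaCGTCAc
Nr4a3: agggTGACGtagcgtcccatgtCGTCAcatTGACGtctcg
Homer1: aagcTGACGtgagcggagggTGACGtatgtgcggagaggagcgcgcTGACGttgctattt
The Pcsk1 stretch lies 89 to 60 bases before the start and the Homer1 stretch 60 to 1 bases before it. A match describes the letters only. No binding was measured here.

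Immediate-early and activity-induced genes did not move as a block. Of 33 listed genes tested, 2 rose in Malat1 ASO (Nr4a3 and Homer1; over all genes 0.14% rose) and 0 were called in OTV:Malat1 and in nonTV:Malat1. At an unadjusted p under 0.05, 3 were higher and 13 lower in OTV:Malat1 (over all genes 2.29% and 2.69%), 4 higher and 8 lower in nonTV:Malat1 (2.09% and 2.07%), and 9 higher and 7 lower in Malat1 ASO (4.57% and 3.99%). The median log2 differences of the 33 were -0.21, -0.14 and -0.16, against medians of 0.00, 0.01 and -0.01 over all genes tested. The 3 comparisons share the ATV:BACE1 libraries. In those, Junb, a subunit of the AP-1 transcription factor, was at 139, 15.4 and 86.5 CPM in replicates 1, 4 and 5. It was at 56.5, 15.3 and 43.5 CPM in OTV:Malat1, 58.6, 13.0 and 64.1 CPM in nonTV:Malat1 and 55.7 and 70.6 CPM in Malat1 ASO. The log2 differences from ATV:BACE1 were -0.96 (adjusted p = 0.0937), -0.77 (adjusted p = 0.830) and -0.72 (adjusted p = 0.214). Without ATV:BACE1 replicate 1 they were -0.57, -0.38 and -0.32.

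Replicate 4 libraries were low in Junb in every group that has one, and the groups overlapped. Fos, Arc, Egr1, Egr4 and Nr4a1 were chosen after their values were seen. The early gene Fos was at 23.5, 3.05 and 13.1 CPM in ATV:BACE1 replicates 1, 4 and 5 and at 12.7, 4.10 and 6.01 CPM in OTV:Malat1, again with overlap. Arc and Egr4 had OTV:Malat1 differences of -0.81 (adjusted p = 0.620) and -1.11 (adjusted p = 0.201), and Egr1 one of -0.49 (adjusted p = 0.507). Leaving out 1 library, that of Arc ran up to -0.36 (without ATV:BACE1 replicate 1) and that of Egr4 up to -0.71 (without OTV:Malat1 replicate 5). Nr4a1, a relative of Nr4a3, had differences of 0.33, 0.35 and 0.47 in OTV:Malat1, nonTV:Malat1 and Malat1 ASO.

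**Figure D5:**
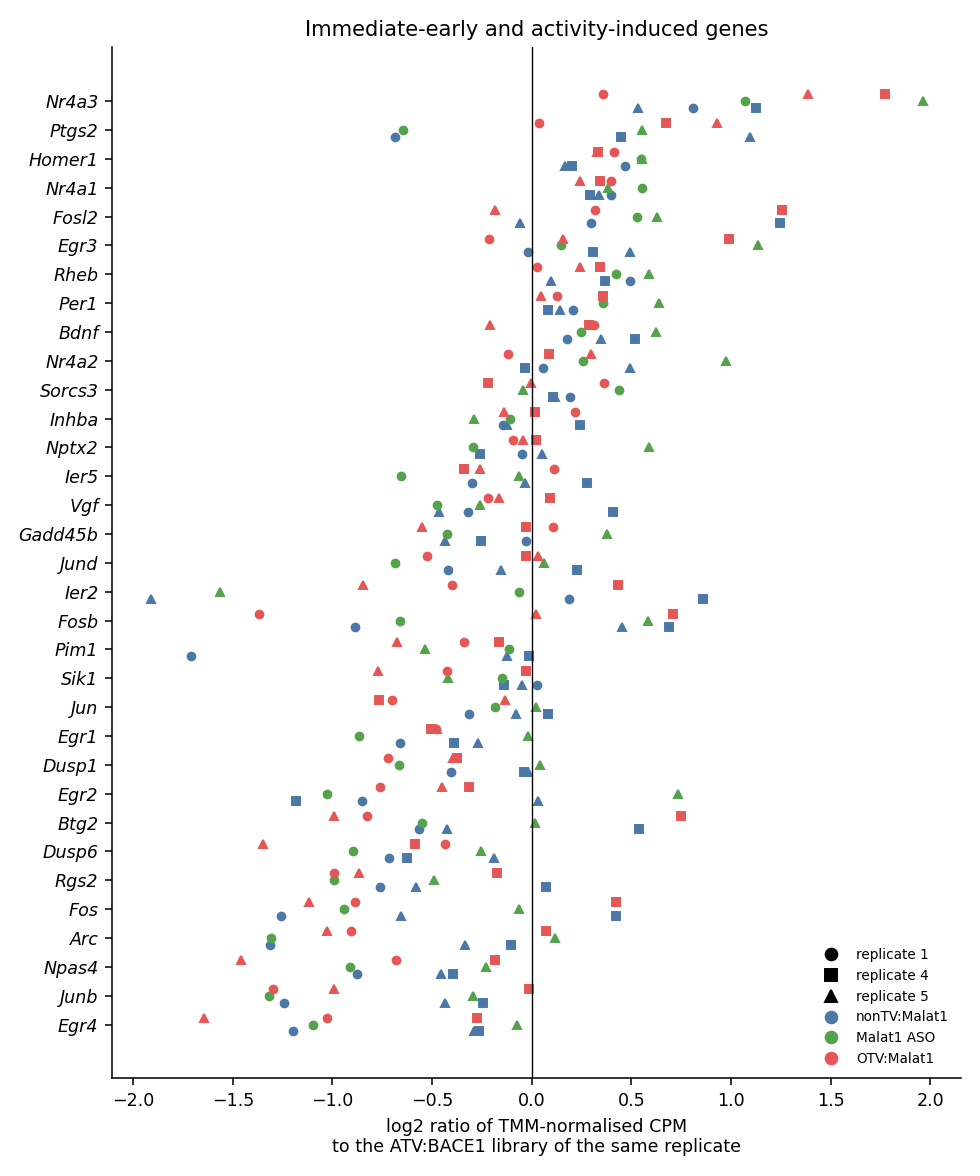
Log2 ratio of TMM-normalised CPM to the ATV:BACE1 library of the same replicate, for the 33 immediate-early and activity-induced genes tested, ordered by the OTV:Malat1 change. Nr4a3 and Homer1 lie to the right of 0 in all 8 libraries, and the Junb and Egr4 points of replicate 1 lie beyond -1.

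The changes were also read in the Drd1-led and the Drd2-led sub-clusters. By edgeR, Malat1 ASO had 17 called genes in sub-cluster 1 (0.153%) and 6 in sub-cluster 4 (0.0568%), all higher. In nonTV:Malat1 2 were called in sub-cluster 1 (0.018%) and 0 in sub-cluster 4, where 416 had an unadjusted p under 0.05. In OTV:Malat1 6 were called in sub-cluster 1 (0.0541%) and 0 in sub-cluster 4, where 411 had an unadjusted p under 0.05. In sub-cluster 1 of OTV:Malat1, Nr4a3 rose by 1.59 (adjusted p = 3.32e-04), 1700016P03Rik by 0.91 (adjusted p = 0.00210), Gm47423 by 0.79 (adjusted p = 0.00641), Gm10851 by 1.05 (adjusted p = 0.0196) and Peli1 by 0.65 (adjusted p = 0.0278). Junb fell there by 1.21 (adjusted p = 3.30e-04). In sub-cluster 4 the Nr4a3 difference was 0.18 (adjusted p = 1.0). The difference between the sub-clusters was tested with limma over 10377 genes, and 0% were called in OTV:Malat1 and in nonTV:Malat1, with 447 and 624 at an unadjusted p under 0.05. For Nr4a3 it was 1.30 (SE 0.289, adjusted p = 0.392). In Malat1 ASO 0.0193% were called.

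Against other neuron clusters few changes were shown to differ. The Malat1 ASO change differed from that in clusters 0, 1 and 9 in 0% of genes each by limma, with 967, 914 and 563 at an unadjusted p under 0.05. By edgeR, Malat1 ASO had 41 of 18492 genes called in cluster 0. All 24 genes called in cluster 2 changed there in the same direction, and 10 of them passed. In clusters 1, 5 and 9 that direction held for 22 of 24, 22 of 23 and 19 of 20 tested. Of these genes, 2, 3 and 0 passed, where edgeR called 2 of 17056, 5 of 13575 and 2 of 10721 genes in all. The clusters come from the same libraries, so their agreement in direction is not independent. The share of all tested genes that agreed in direction was not counted. For Homer1, which rose by 0.90 in cluster 0 and by 0.50 in cluster 1, the difference of cluster 2 from cluster 0 was -0.36 (adjusted p = 0.340). For Crym the difference was 0.74 from cluster 0 (adjusted p = 0.139) and 1.20 from cluster 1 (adjusted p = 0.0999). The OTV:Malat1 change, Malat1 left aside, differed in 0% of genes from clusters 0 and 1, with 818 and 802 at an unadjusted p under 0.05, and in 5 of 10721 genes (0.0466%) from cluster 9. The nonTV:Malat1 change differed in 0% from clusters 0 and 9, with 821 and 583 at an unadjusted p under 0.05, and in 0.00624% from cluster 1.

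Genes of the molecules that the agents act through were not called in OTV:Malat1. Rnaseh1, whose product cuts RNA paired with DNA, was at 11.1, 10.9 and 11.3 CPM in ATV:BACE1 and 11.3, 11.7 and 9.08 CPM in OTV:Malat1, a log2 difference of -0.06 (SE 0.149). Mouse Tfrc, the transferrin receptor gene, had a difference of -0.09 (SE 0.106) and Bace1, the target of the control molecule, one of 0.09 (SE 0.0991). Neat1, the long non-coding RNA encoded beside Malat1, was at 62.8, 52.9 and 94.8 CPM in ATV:BACE1 and 43.3, 56.8 and 98.3 CPM in OTV:Malat1, a difference of -0.12 (SE 0.108), and the groups overlapped. That difference was 0.21 without called doublets and 0.20 in sub-clusters 0, 1, 4, 5 and 8. Rnaseh1, Tfrc, Bace1, Drd1, Drd2, Penk and Tac1 were named after their values were seen.

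Of the 16 gene lists, 2 had a called member in any of the 3 comparisons with ATV:BACE1. These were the activity list above and the synapse list, where Homer1 rose in Malat1 ASO as 1 of 34 tested (over all genes 0.14% rose), a call lost without called doublets. The lists of Malat1's neighbours (12 tested), abundant nuclear long non-coding RNAs (17), splicing and speckle proteins (41), RNase H and ASO-binding proteins (21), transferrin receptor and iron handling (19), and Bace1 and amyloid processing (22) had none. Neither had those of oligonucleotide uptake and endosomal sorting (32), glutamate receptors (24), GABA receptors and synthesis (19), potassium channels (31), sodium and calcium channels (24), circadian clock (22), corticosteroid-responsive genes (15) and cell stress and nucleic acid sensing (21). The median log2 difference in OTV:Malat1 was 0.01 for splicing and speckle proteins, 0.03 for the synapse list and 0.04 for sodium and calcium channels, against 0.00 over all genes. It was -0.13 for cell stress and nucleic acid sensing and 0.12 for corticosteroid-responsive genes. Among the most abundant members, Meg3 stood at 5319.9 to 6366 CPM in ATV:BACE1 with an OTV:Malat1 difference of 0.01 (SE 0.0726), and Snhg11 had one of 0.06 (SE 0.0727). Rbfox1 and Celf2, regulators of neuronal splicing, had 0.02 and 0.03. Grm5, a glutamate receptor, Kcnip4, a potassium channel partner, and Nrxn3, a presynaptic adhesion molecule, had 0.05, 0.01 and 0.04.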

How the data were processed

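Single-nucleus RNA was measured in 11 libraries of mouse brain. In the deposited matrix, whole UMI counts are given per nucleus (110304) and gene symbol (25938), and its totals per nucleus equal those in the authors' metadata. The authors used Cell Ranger 5.0.0, Seurat 4 and mm10, per the submitters' processing notes. The deposited metadata also give the percent of mitochondrial UMIs, and, as a fraction from 0 to 1, the authors' class prediction and doublet scores. Clusters, classes and doublet calls were taken as deposited. The lowest nucleus total was 499 UMIs.

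UMIs were summed per library and tested with edgeR 4.0.16 (R 4.3.3; TMM scaling, filterByExpr by group, quasi-likelihood test) over all 11 libraries. The replicate number, which is the deposited batch, was a block, and p-values were adjusted by Benjamini-Hochberg over all genes tested at 0.05. For differences between clusters and between sub-clusters, limma 3.58.1 was run on the within-library differences of log2 CPM. Sub-clusters came from scanpy 1.11.5 (2000 genes, 20 components, 15 neighbours, Leiden resolution 0.3, Malat1 not used). DESeq2 1.42.0, other scalings and filters, and each library left out were alternatives. Per-library CPM in comparisons are TMM-normalised, and marker levels are plain CPM. Same-numbered libraries deviated together (r between 0.579 and 0.861 in 15 pairs, against -0.744 to 0.350 in 30 pairs of different number), and they share batch, sex and age. Each gene was centred within its group first, so positive r in same-numbered pairs pulls the other pairs towards negative r. On simulated counts edgeR recovered 61%, 58% and 47% of log2 changes of 0.5 and 96%, 95% and 92% of changes of 1 in OTV:Malat1, nonTV:Malat1 and Malat1 ASO, and 7.10%, 4.38% and 7.33% of its calls were false. For differences between changes limma recovered 30%, 31% and 21% at 0.5 and 80%, 84% and 67% at 1. Of its calls, 5.17%, 10.2% and 13.7% were false. These simulated limma tests held 16056 to 16061 genes. The measured comparison with cluster 9 held 10721 genes and that between sub-clusters 1 and 4 held 10377. Recovery in these smaller comparisons was not tested, so the percentages do not give it.

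The members, gene lists and tests were chosen with earlier results of these data known. Named genes are Malat1, the called genes (where over 20, the 10 highest and 10 lowest log2 changes), the 3 most abundant and all called members of each list, the 3 smallest p-values of each comparison with ATV:BACE1, and the cell type markers.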

Additional observations from a re-analysis of the deposited data

Results flagged for a closer look

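The Malat1 change in OTV:Malat1 against ATV:BACE1 differed between sub-clusters by limma's test against their mean. The difference was 0.19 in sub-cluster 1, 0.14 in sub-cluster 4 and 0.25 in sub-cluster 5, where less Malat1 was lost. It was -0.15 in sub-cluster 2, -0.21 in sub-cluster 3, -0.10 in sub-cluster 6 and -0.12 in sub-cluster 7, where more was lost. All 7 passed under each of the 11 fits that left out 1 library, and 4 of 6 did without called doublets. The spread was pooled over sub-clusters of the same libraries, which are not independent, and the differences cancel out over the 7.

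The OTV:Malat1 change of 5 genes differed between the neurons of cluster 2 and those of cluster 9 by limma (adjusted p = 0.0430 for each). The difference, cluster 2 minus cluster 9, was 0.52 for Dgkb, a lipid kinase abundant in striatum, 0.83 for Cnr1, the cannabinoid receptor, and 0.50 for Slc35f1. It was -0.85 for Tox and -0.40 for Kcnip4. None passed without the replicate block, with a prior count of 0.5 or without called doublets. The nonTV:Malat1 change of Lhfp differed by 0.55 between cluster 2 and cluster 1 (limma adjusted p = 0.00257). These 6 genes were named after their values were seen.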

How the results depend on the processing

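The Malat1 difference between OTV:Malat1 and ATV:BACE1 passed with DESeq2 (-0.39), total counts (-0.38) and no filter (-0.38). Against nonTV:Malat1 it passed with these (-0.43, -0.41 and -0.43) and with only the 2 groups compared (-0.44). Against Malat1 ASO it passed with total counts (-0.40), no filter (-0.44) and only the 2 groups (-0.39). The fits with no filter, and that of OTV:Malat1 and Malat1 ASO alone, took their spread as pooled over genes. Their p-values therefore do not measure the spread between libraries. Without ATV:BACE1 replicate 1 both of these comparisons passed as well (adjusted p = 5.23e-04 and 0.00436). Between nonTV:Malat1 and Malat1 ASO it turned to 0.0125 with total counts and 0.0163 in sub-clusters 0, 1, 4, 5 and 8, a set chosen after seeing the data.

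Without the replicate block (no pairing of libraries) the called genes were 0 in OTV:Malat1 and 0 in Malat1 ASO against ATV:BACE1, 1 sub-cluster was called for Malat1, and 0 genes differed from cluster 9. With no filter the 6 comparisons, in a fixed order (OTV:Malat1, nonTV:Malat1 and Malat1 ASO with ATV:BACE1, then OTV:Malat1 with the other agents, then nonTV:Malat1 with Malat1 ASO), called 50, 27, 118, 19, 34 and 22 genes. With only the 2 groups compared, OTV:Malat1 and nonTV:Malat1 against ATV:BACE1 called 5 and 18, and the last 3 comparisons 2, 84 and 4. The counts with no filter and the 84 rest on the pooled spread described above. For OTV:Malat1, total counts called 4 genes with the control, 1 with nonTV:Malat1 and 1 with Malat1 ASO. DESeq2 called 2 in nonTV:Malat1 against ATV:BACE1 and 1 in OTV:Malat1 against nonTV:Malat1. Without called doublets nonTV:Malat1 had 1 and Malat1 ASO 12, the sub-cluster test passed in 4, and 0 genes differed from cluster 9, as with a prior count of 0.5. In sub-clusters 0, 1, 4, 5 and 8 OTV:Malat1 had 1 against ATV:BACE1 and 1 against Malat1 ASO, and nonTV:Malat1 against Malat1 ASO had 2. With at least 50 nuclei per library 3 sub-clusters were called.

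Leaving out 1 library at a time, the Malat1 differences of the 6 comparisons in that order ran from -0.49 to -0.30, -0.0199 to 0.0949, -0.0221 to 0.0910, -0.54 to -0.34, -0.57 to -0.38 and -0.0444 to 0.0482. The called genes ran from 0 to 7, 0 to 2, 5 to 29, 0 to 2, 0 to 2 and 0 to 1. Called sub-clusters ran from 2 to 6, and genes that differed from clusters 0, 1 and 9 from 0 to 4, 0 to 3 and 0 to 10. The low-Malat1 share differed by 14.7 to 23.3 points, by 16.1 points without called doublets and by 11.8 points in sub-clusters 0, 1, 4, 5 and 8.

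Some differences of single genes that did not pass changed sign. Without called doublets OTV:Malat1 differences were -0.0745 for Drd1, -0.0224 for Drd2 and 0.21 for Neat1, and in sub-clusters 0, 1, 4, 5 and 8 they were -0.0344 for Drd1 and 0.20 for Neat1. Leaving out 1 library, they ran from -0.12 to 0.11 for Drd1, -0.24 to 0.0136 for Neat1, -0.00637 to 0.15 for Bace1, -0.21 to 0.00874 for Tfrc, -0.14 to 0.0714 for Rnaseh1, -0.000453 to 0.20 for Tac1 and -0.25 to 0.57 for Mid1. Those of nonTV:Malat1 ran from -0.00760 to 0.80 for Mid1 and -0.0794 to 1.61 for Gm21887, and that of Malat1 ASO from -1.11 to 0.0397 for Arc. The causes were not tested. The design limits precision: with 3 libraries against 3 no permutation p is under 0.1, and with 3 against 2 none is under 0.2.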

Other observations

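The genes that mark striatal neurons were read as a list of 43, put together after seeing the data. In Malat1 ASO 1 rose by edgeR, Pdyn (over all genes 0.14% rose), and in OTV:Malat1 and nonTV:Malat1 none was called. At an unadjusted p under 0.05, 2 were higher and 1 lower in OTV:Malat1 (over all genes 2.29% and 2.69%), 2 were higher and 2 lower in nonTV:Malat1 (2.09% and 2.07%), and 4 were higher and 4 lower in Malat1 ASO (4.57% and 3.99%). The medians of the 43 log2 differences were 0.05 in OTV:Malat1, 0.01 in nonTV:Malat1 and 0.01 in Malat1 ASO. In OTV:Malat1 Drd1 had a difference of 0.01, Drd2 0.11, Penk 0.17 and Tac1 0.08, with edgeR adjusted p from 0.985 to 0.997. Leaving out 1 library, Penk ran from 0.0560 (without OTV:Malat1 replicate 1) to 0.32 (without OTV:Malat1 replicate 4) and Drd2 from 0.0120 (without ATV:BACE1 replicate 1) to 0.22 (without ATV:BACE1 replicate 4).

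Among corticosteroid-responsive genes, Klf9, a transcription factor, had a log2 difference of 0.27 (edgeR adjusted p = 0.755) in OTV:Malat1 and 0.30 (edgeR adjusted p = 0.334) in Malat1 ASO. Sgk1, a kinase, had 0.08 and 0.13. Of the 15 genes tested, 5 were higher in Malat1 ASO at an unadjusted p under 0.05 (over all genes 4.57%), and none was called.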
